A study of Mus musculus with 89 samples.

Results

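The highest and the lowest dose of CuO NH3, copper oxide nanoparticles with a methylaminated surface, were compared in the lungs of mice with allergic airway inflammation. Samples were chosen by their labels alone: 3 samples at 40 μg, 3 at 2.5 μg and, between them, 3 at 10 μg, all challenged with OVA, which makes 9 of the 89 samples of the study. All animals, the controls included, were female BALB/c mice of 6 to 8 weeks, wild type as far as the labels go, that had been sensitized to ovalbumin (OVA) with the adjuvant Alum. CuO NH3 was given together with OVA into the airways by oropharyngeal aspiration on each of 4 consecutive days. Lung tissue was taken 24 h after the last one. According to the paper, the lungs were lavaged first and the RNA came from a part of the left lobe. The samples thus hold a mixture of lung cell types, without the cells removed by the lavage. The sample descriptions give the doses per day in μg, whereas the treatment text of the same records has mg; μg is used here. Each sample was an independent pool of 2 RNA samples, and replicates 1, 2 and 3 of each dose lay on slides 4, 5 and 6. Levels are also given for 8 OVA-challenged and 7 PBS-challenged control samples without nanomaterial. The same dose step was read in PBS-challenged mice given CuO NH3 (3 samples at each dose) and in OVA-challenged mice given CuO PEG, which carries polyethylene glycol on its surface (3 samples at each dose).

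Inhaled allergen in a sensitized animal recruits T helper type 2 cells, eosinophils and macrophages, and the interleukins 4 and 13 turn airway secretory cells into goblet cells that make mucus. Copper ions bind metallothioneins, small cysteine-rich proteins whose genes are switched on by metals, and misfolded or damaged proteins call up the heat shock proteins. In RNA of mixed lung tissue, fewer cells of a type, less RNA per cell and a smaller share beside incoming cells cannot be told apart.

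Levels are log2 intensities of 2-colour arrays after quantile normalization, with dye, slide and array position removed. They can be compared between samples for a gene, not between genes. Differences are log2 fold changes from limma with their standard errors (SE), and p-values are adjusted by the Benjamini-Hochberg method over 22911 genes. A gene is said to have risen, fallen or been called where the adjusted p was under 0.05 and the log2 fold change beyond 0.58 in size. In the 9 samples, the median spot intensity ran from 57.5 to 88, and 44.61% to 58.12% of spots were well above background, with 44.61% to 53.31% at 2.5 μg, 51.89% to 55.33% at 10 μg and 49.72% to 58.12% at 40 μg. No member named here was saturated in these samples. The 2 samples of a slide at 2.5 and 40 μg carried opposite dyes, and no array held any pair of the 9 samples. The p-values measure the spread between the pools.

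From 2.5 to 40 μg, 728 of 22911 genes (3.18%) were called, 300 higher (1.31%) and 428 lower (1.87%). Of these, 194 changed by more than 2-fold, 71 up and 123 down, and 24 by more than 4-fold. The samples of both doses did not overlap in 719 of the 728 genes, against 29.3% of all genes tested. In 727, the difference had the same sign on 3 of 3 slides, the exception being 3300005D01Rik, which was higher at 40 μg on slides 5 and 6 and lower on slide 4. The mean at 10 μg lay between the means at 2.5 and 40 μg in 676 of the 728. These counts describe genes called on the same samples and lend the calls no further support. For the sign and the mean at 10 μg, the share over all genes is not given here. Over all genes the median log2 fold change was 0.02. With each array as a term in place of slide and position, 160 genes were called, 61 higher and 99 lower. That setting ended the calls of many genes named below, among them Clca1, Tff2, Ms4a1, Vcan, Hspa1a, Retnlb, Stfa1 and Orm1. Leaving out 1 of the 6 samples gave 566 (without replicate 3 at 40 μg) to 868 calls (without replicate 2 at 2.5 μg).

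Genes of mucus-producing goblet cells fell the most. Of the 10 goblet cell genes listed and measured, 9 fell, 0 rose, and the median log2 fold change was -1.94. With each array as a term, 3 were called lower. Muc5ac, the gel-forming mucin of airway goblet cells, read 10.35, 11.52 and 11.30 at 2.5 μg in replicates 1 to 3, 9.19, 10.02 and 10.39 at 10 μg, and 7.36, 7.36 and 7.81 at 40 μg. No sample at 40 μg reached the lowest at 10 μg, and the fall from 2.5 to 40 μg was -3.55 ± 0.49 (SE, n = 3 and 3, limma adjusted p = 3.7e-07). The OVA control samples ran from 10.13 to 11.14 around a median of 10.68, and the PBS control samples from 6.03 to 7.11 around 6.63, so the samples at 40 μg lay between the ranges of the control groups. Fcgbp, a mucus protein that binds mucins, read 10.82, 11.55 and 11.50 at 2.5 μg, 9.65, 10.39 and 10.70 at 10 μg, and 7.89, 7.88 and 8.13 at 40 μg. Its 40 μg samples lay close together and below all others, a difference of -3.32 ± 0.40 (limma adjusted p = 2.8e-08).

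Clca1, a secreted goblet cell protease regulator induced by interleukin 13, had the largest fall of all genes by the naming rule but also the widest spread. It read 13.32, 16.79 and 15.58 at 2.5 μg, 13.86, 14.34 and 15.30 at 10 μg and 10.83, 11.29 and 11.02 at 40 μg, which gave -4.18 ± 0.99 (limma adjusted p = 0.0025). The wide range at 2.5 μg left the groups apart. Yet the call was lost without replicate 2 at 2.5 μg and with each array as a term. Tff2, a trefoil peptide of mucous epithelia, read 10.65, 11.72 and 11.77 at 2.5 μg against 8.28, 8.83 and 9.13 at 40 μg (-2.63 ± 0.51, limma adjusted p = 0.00018). Tff1, a related trefoil peptide, read 8.15, 9.10 and 8.95 against 6.37, 6.37 and 6.65 (-2.27 ± 0.34, limma adjusted p = 2.1e-06). Muc5b, the other gel-forming airway mucin, read 12.17, 13.16 and 13.13 at 2.5 μg, 11.95, 12.28 and 12.56 at 10 μg and 11.07, 11.50 and 11.89 at 40 μg. Its fall was smaller, -1.33 ± 0.39 (limma adjusted p = 0.019), and 5 of 17 alternative settings ended the call. Foxa3, a transcription factor of the list, was the 1 member not called, at -0.35, while Spdef, the goblet cell transcription factor, fell by 1.72 on the log2 scale. These last members, like any others outside the 4 with the largest change of a list, were picked after their values were seen.

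**Figure D1:**
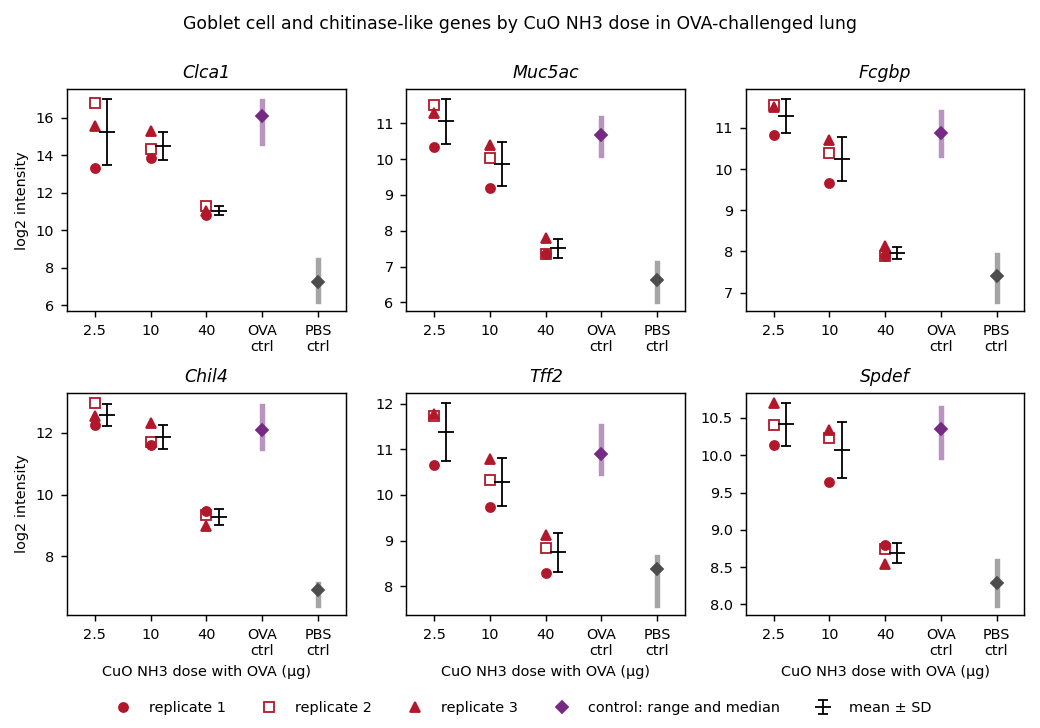
Level of 6 genes (log2 intensity, vertical axes) against CuO NH3 dose in OVA-challenged lung, with 1 symbol per replicate and the mean ± SD of 3 samples beside it. Bars with diamonds give the range and median of the 8 OVA and 7 PBS control samples. In each of the 6 panels the 3 samples at 40 μg lie below the 6 samples at 2.5 and 10 μg.

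Other genes among the 12 largest falls included Chil4 and Chia1. Chil4, a secreted chitinase-like protein abundant in allergic mouse lung, read 12.25, 12.97 and 12.53 at 2.5 μg, 11.59, 11.71 and 12.32 at 10 μg, and 9.48, 9.35 and 9.0 at 40 μg (-3.30 ± 0.37, limma adjusted p = 3.9e-09). All samples at 40 μg were above the highest PBS control, 7.12, and below the lowest OVA control, 11.51. Chia1, the acidic mammalian chitinase, read 14.12, 14.04 and 13.95 at 2.5 μg against 12.53, 11.39 and 11.03 at 40 μg (-2.39 ± 0.30, limma adjusted p = 7.7e-08). The 3 samples at 2.5 μg were tight and those at 40 μg spread over more than a log2 unit. Scin, an actin-severing protein, fell by 2.54 on the log2 scale and Adra2a, an adrenergic receptor, by 2.31. Col6a5, a collagen VI chain, read 9.16, 9.56 and 8.85 at 2.5 μg against 7.53, 6.91 and 6.73 at 40 μg (-2.13 ± 0.28, limma adjusted p = 1.4e-07).

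Of 22 genes listed for type 2 immunity and the allergic airway, 4 of which (Clca1, Muc5ac, Muc5b and Itln1) are also on the goblet cell list, 7 fell and 1 rose, with a median of -0.71. With each array as a term, 3 were called lower and 0 higher. The members that fell were Clca1, Muc5ac, Muc5b, Itln1, Chil4, Chia1 and Il33, most of them secreted by the airway epithelium. Il33 encodes an alarmin released by damaged barrier cells. It read 10.82, 11.39 and 10.998 at 2.5 μg, 10.69, 10.94 and 10.92 at 10 μg and 10.23, 10.42 and 10.24 at 40 μg. The change was -0.77 ± 0.20 (limma adjusted p = 0.0063). This call was lost without replicate 2 at 2.5 μg and with each array as a term. Il4 read 8.07, 8.54 and 8.12 at 2.5 μg against 7.40, 7.65 and 7.58 at 40 μg; the groups did not overlap, but its -0.70 ± 0.25 missed the threshold (limma adjusted p = 0.066). Il13 was not well above background in any of the 9 samples. The eosinophil chemokines Ccl11 (-0.72, limma adjusted p = 0.10) and Ccl24 (-0.03, limma adjusted p = 0.97) and the T cell chemokine Ccl17 (-0.28, limma adjusted p = 0.55) were not called. The member that rose was Retnlb, described with the other rises.

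Marker genes of lymphocytes fell as a broad group, and none of them rose. Of 24 T cell markers, 16 fell, with a median log2 fold change of -0.76 over the list. Cd3d, a chain of the T cell receptor complex, read 10.30, 10.58 and 10.46 at 2.5 μg, 9.89, 10.16 and 10.09 at 10 μg and 9.08, 9.18 and 8.86 at 40 μg (-1.41 ± 0.18, limma adjusted p = 4.9e-08). The 3 doses did not overlap, and the OVA control samples ran from 10.08 to 10.44. Icos, a costimulatory receptor of activated T cells, read 9.06, 9.45 and 9.19 at 2.5 μg against 7.81, 7.84 and 7.39 at 40 μg (-1.56 ± 0.21, limma adjusted p = 3.7e-07). The surface receptors Cd6 and Cd5 fell by 1.53 and 1.47 on the log2 scale. Markers of single T cell subsets were uneven: Cd4 was at -0.38, under the fold threshold although its limma adjusted p was 0.0024, and Cd8a was at -0.30, whereas Foxp3 of regulatory T cells fell by 0.77 and Gata3 of T helper type 2 cells by 0.72.

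Of 11 B cell markers, 9 fell, with a median of -0.91. Ms4a1, the B cell surface protein CD20, read 10.89, 11.52 and 10.89 at 2.5 μg, 10.43, 10.82 and 10.87 at 10 μg and 9.37, 9.58 and 8.77 at 40 μg (-1.86 ± 0.36, limma adjusted p = 0.00022). No sample at 40 μg reached the lowest at the other doses. The transcription factor Pax5 (-0.08) and the kinase Blk (-0.09) were the members not called. With each array as a term, 0 B cell markers and 8 T cell markers were called.

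Of 8 natural killer cell markers, 5 fell, and 1 was called with each array as a term. Gzma, a granule protease of killer cells, read 12.22, 12.58 and 12.43 at 2.5 μg, 11.23, 11.99 and 11.95 at 10 μg and 10.52, 10.64 and 10.53 at 40 μg (-1.85 ± 0.24, limma adjusted p = 1.7e-07). The granule protein gene Nkg7 fell by 1.37 on the log2 scale. The natural killer receptors Klrb1c and Klre1 were both at -0.34, under the fold threshold, and Klre1 was not well above background in any sample at 10 or 40 μg.

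Alveolar macrophage markers fell in part. Of 16 measured, 7 fell and 0 rose, with a median of -0.75, and 4 were called with each array as a term. Itgax, the integrin CD11c of alveolar macrophages and dendritic cells, read 10.03, 10.09 and 9.83 at 2.5 μg, 9.75, 9.65 and 9.74 at 10 μg and 8.93, 8.80 and 8.58 at 40 μg (-1.21 ± 0.15, limma adjusted p = 3.8e-08). The 3 doses stood apart, with each sample at 40 μg below the OVA control range of 9.79 to 10.43. Ctsk, a lysosomal protease, read 13.15, 13.19 and 13.16 against 12.51, 12.09 and 11.86 (-1.02 ± 0.22, limma adjusted p = 0.00067). The scavenger receptor Marco (-0.98, limma adjusted p = 0.10) overlapped between doses, and Siglecf (-0.26) and Mrc1 (-0.31) were not called either. Cd83, a marker of mature dendritic and B cells that is on none of the lists, read 11.62, 11.80 and 11.63 at 2.5 μg, 11.04, 11.41 and 11.32 at 10 μg and 9.75, 9.61 and 9.28 at 40 μg. Its fall of -2.14 ± 0.20 had a limma adjusted p of 7.1e-11, and the samples of the highest dose did not reach those of the other doses.

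Among 10 eosinophil genes measured, 4 fell, and all 4 were eosinophil-associated ribonucleases. Ear10 read 13.51, 13.65 and 13.41 at 2.5 μg, 13.01, 12.81 and 13.03 at 10 μg and 11.93, 11.35 and 11.004 at 40 μg (-2.10 ± 0.25, limma adjusted p = 2.3e-08). Ear2 fell by 1.90, Ear1 by 1.89 and Ear6 by 0.85 on the log2 scale. These genes are close copies, so a probe may read several of them, and lung macrophages express some of them too. The granule proteins that define eosinophils were not called, with Epx at -0.25 and Prg2 at -0.42. The call of Ear6 was lost in 4 of 17 alternative settings, among them without replicate 2 at either dose.

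**Figure D2:**
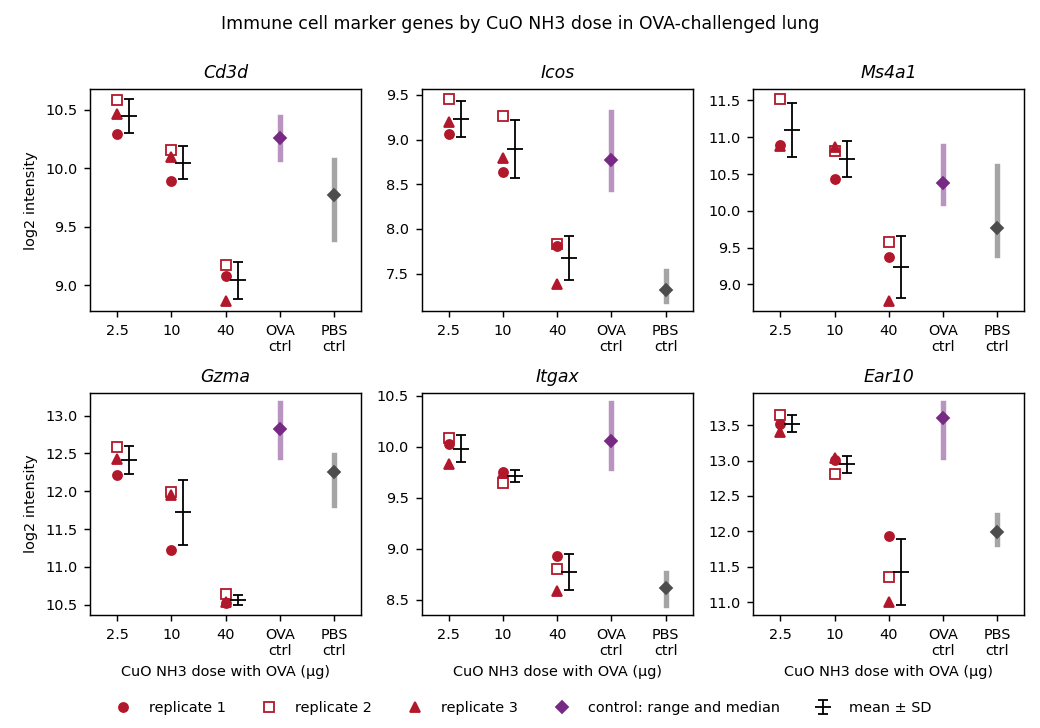
Level of 6 immune cell genes (log2 intensity, vertical axes) against CuO NH3 dose in OVA-challenged lung, with 1 symbol per replicate and the mean ± SD of 3 samples. Bars with diamonds give the range and median of the control samples. The samples at 40 μg are the lowest of the 9 in every panel, for Cd3d at 8.86 to 9.18 against 9.89 to 10.58 at the other doses.

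Monocyte and recruited macrophage markers did not move one way. Of 14 measured, Vcan, a matrix proteoglycan of monocytes, rose (0.95 ± 0.18, limma adjusted p = 0.00019), and the complement subunits C1qa (-0.86 ± 0.19, limma adjusted p = 0.001) and C1qb (-0.81 ± 0.22, limma adjusted p = 0.011) fell. The list had a median of 0.01. The monocyte chemokines gave 0 calls of 9, and 1 of the 9 was not above background in any sample. Ccl2 read 12.88, 13.79 and 13.33 at 2.5 μg, 13.77, 14.04 and 14.07 at 10 μg and 13.35, 15.16 and 14.24 at 40 μg. Replicate 1 at 40 μg lay within the range at 2.5 μg, and the 0.91 ± 0.46 was not called (limma adjusted p = 0.22). Ccl7 followed the same order of samples (0.84 ± 0.50, limma adjusted p = 0.31), and Tnf was at 0.43 (limma adjusted p = 0.20).

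A heat shock protein had the largest rise of all genes by the naming rule. Hspa1a, a stress-inducible chaperone, read 11.15, 10.33 and 10.21 at 2.5 μg, 11.65, 13.38 and 12.27 at 10 μg and 12.61, 13.43 and 14.09 at 40 μg (2.81 ± 0.49, limma adjusted p = 4e-05). The doses 10 and 40 μg overlapped, and both were above 2.5 μg. Its near-identical neighbour Hspa1b rose by 1.58 ± 0.52 (limma adjusted p = 0.037), a call lost in 6 of 17 alternative settings, and its probes may read both genes. The other 15 of the 17 heat shock genes listed were not called, and the list had a median of 0.21. The metallothionein gene Mt2 read 13.28, 13.81 and 13.32 at 2.5 μg, 13.84, 14.31 and 14.10 at 10 μg and 14.31, 14.85 and 14.85 at 40 μg (1.20 ± 0.30, limma adjusted p = 0.0046). Mt1 read 11.18, 11.34 and 11.16 against 11.64, 11.92 and 12.08 (0.65 ± 0.20, limma adjusted p = 0.028). These were the only calls among 21 genes of metal binding and copper handling. The Mt2 call was lost in 1 of 17 settings, without replicate 3 at 40 μg, and the Mt1 call in 6, that one included.

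The 250 bases before the start of these 4 genes are shown because each pair moved together and each kind of stress has a known DNA word. They are the RefSeq promoter sequences of build GRCm38.p6, written 5′ to 3′ on the strand of the gene, with every match to a searched word in capitals. For the heat shock genes the words were GAANNTTC and TTCNNGAA, each its own reverse complement, and for the metallothioneins TGCACNC and TGCGCNC, on both strands. Hspa1a lies at chr17:34972157-34972406 and Hspa1b at chr17:34959239-34959488, both on the minus strand.
Hspa1a: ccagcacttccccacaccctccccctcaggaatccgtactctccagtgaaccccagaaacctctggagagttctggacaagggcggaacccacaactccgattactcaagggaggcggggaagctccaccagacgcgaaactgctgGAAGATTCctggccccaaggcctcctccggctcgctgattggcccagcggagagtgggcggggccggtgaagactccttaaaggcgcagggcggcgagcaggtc
Hspa1b: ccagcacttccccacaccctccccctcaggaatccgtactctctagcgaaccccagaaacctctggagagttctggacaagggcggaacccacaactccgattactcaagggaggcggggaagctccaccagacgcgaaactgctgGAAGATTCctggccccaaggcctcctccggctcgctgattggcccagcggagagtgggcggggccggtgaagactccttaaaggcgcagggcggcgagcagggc
Mt1, at chr8:94178839-94179088, and Mt2, at chr8:94172368-94172617, are on the plus strand.
Mt1: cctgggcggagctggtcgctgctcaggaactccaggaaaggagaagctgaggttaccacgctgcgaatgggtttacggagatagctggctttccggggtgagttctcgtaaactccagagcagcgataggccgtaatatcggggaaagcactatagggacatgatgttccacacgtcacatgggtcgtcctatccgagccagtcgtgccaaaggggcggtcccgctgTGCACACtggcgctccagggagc
Mt2: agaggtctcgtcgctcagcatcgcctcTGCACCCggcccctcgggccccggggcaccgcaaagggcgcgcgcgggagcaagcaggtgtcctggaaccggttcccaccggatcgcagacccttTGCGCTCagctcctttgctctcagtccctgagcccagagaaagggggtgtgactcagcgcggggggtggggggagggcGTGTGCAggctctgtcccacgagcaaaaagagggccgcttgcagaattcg
The heat shock pair differed at 3 of 250 positions, and each held 1 match, from base -104 to -97 of the start. The windows of Mt1 and Mt2 held 1 and 3 matches. Over 32851 promoter windows of the same length, 12.8% held a heat shock word and 21.4% a metal response word. In the lists, 7 of 12 heat shock genes with a promoter in the table and 8 of 18 of metal binding and copper handling held their word, and most of these genes were not called. A match is only a description of the letters.

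Retnlb, a resistin-like peptide that goblet cells secrete, rose while the other goblet cell products fell. It read 9.38, 9.61 and 9.35 at 2.5 μg, 8.96, 9.95 and 10.05 at 10 μg and 11.38, 11.70 and 11.60 at 40 μg (2.11 ± 0.40, limma adjusted p = 0.00015). The rise lay between 10 and 40 μg (1.90), with no called difference between 2.5 and 10 μg (0.21). Its OVA control samples ran from 8.34 to 9.70 and its PBS control samples from 5.61 to 6.58. Dmbt1, a mucosal scavenger protein, read 6.60, 7.23 and 7.38 at 2.5 μg against 8.69, 9.07 and 9.57 at 40 μg. It rose by 2.04 ± 0.50 (limma adjusted p = 0.0035). This call was lost without replicate 3 at 40 μg and with each array as a term.

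Of the 12 largest rises, 6 were stefins (Stfa1, Stfa2, Stfa2l1, Stfa3, Cstdc4 and Cstdc5), cystatin-type inhibitors of lysosomal proteases that myeloid cells express. Stfa1 read 7.77, 9.01 and 7.89 at 2.5 μg, 8.98, 9.34 and 8.97 at 10 μg and 9.94, 11.15 and 10.32 at 40 μg (2.25 ± 0.39, limma adjusted p = 4e-05). The lowest sample at 40 μg was above the highest at the other doses, and every one of the 9 samples was above the control range of 6.45 to 7.62. The log2 fold changes of the other stefins were between 1.77 (Stfa3) and 2.19 (Cstdc5). The copies are near-identical, so these are not independent readings. The 18 neutrophil markers measured gave 3 rises and 0 falls, with a median of 0.53. Clec4d, a C-type lectin of myeloid cells, read 9.93, 10.35 and 9.76 at 2.5 μg, 10.70, 10.94 and 10.63 at 10 μg and 11.07, 11.55 and 11.58 at 40 μg (1.39 ± 0.25, limma adjusted p = 7.9e-05), so that its 3 doses did not overlap. The collagenase Mmp8 rose by 1.35 and the decoy receptor Il1r2 by 1.30. The summed level of the neutrophil markers ran from 16.27 to 16.70 at 2.5 μg, 16.52 to 16.56 at 10 μg and 16.33 to 17.18 at 40 μg (log2), which overlap. Without replicate 2 at 2.5 μg, 9 neutrophil markers were called higher. Of 9 chemokines and growth factors that attract or feed neutrophils, Ppbp (0.77) was the only one that rose, and Cxcl5 was at -0.59 (limma adjusted p = 0.56).

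Acute phase genes rose in part. Of 17 measured, 3 rose and C3, the central complement protein, fell (-0.98 ± 0.20, limma adjusted p = 0.00056). Orm1, an acute phase plasma glycoprotein, read 8.66, 9.28 and 8.91 at 2.5 μg, 9.82, 9.95 and 9.63 at 10 μg and 9.67, 11.82 and 11.27 at 40 μg (1.97 ± 0.42, limma adjusted p = 0.00081). Replicate 1 at 40 μg lay within the samples at 10 μg, far under the other two. Orm2, its close copy, gave 1.86 ± 0.42, and Hp, which binds free haemoglobin, rose by 0.89. Saa3, a serum amyloid made in inflamed lung, read 14.84, 14.94 and 14.99 at 2.5 μg against 14.23, 17.25 and 16.38 at 40 μg, and overlapped between doses (1.03 ± 0.60, limma adjusted p = 0.30). Without replicate 1 at 40 μg, 7 acute phase genes were called higher.

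Of 26 genes that build and cut the extracellular matrix, 12 rose, 1 fell and 13 were not called, with a median of 0.64. Tnc, the matrix protein tenascin C of healing tissue, read 7.17, 7.64 and 7.03 at 2.5 μg, 7.36, 7.79 and 7.60 at 10 μg and 8.74, 8.71 and 8.98 at 40 μg (1.53 ± 0.19, limma adjusted p = 3.4e-08). Col5a1, a fibrillar collagen chain, read 10.52, 10.96 and 10.47 at 2.5 μg against 11.83, 11.90 and 12.16 at 40 μg (1.31 ± 0.16, limma adjusted p = 2.5e-08). For both, the 10 μg samples overlapped those at 2.5 μg and none reached 40 μg. Col1a1 rose by 1.18. The member that fell was Mmp12, the elastase of macrophages (-1.39 ± 0.34, limma adjusted p = 0.0038). Its call was lost without replicate 3 at 40 μg and with each array as a term. With each array as a term, 4 matrix genes were called higher. Ereg, a growth factor ligand of the epidermal growth factor receptor, was not well above background in any sample at 2.5 or 10 μg and was so in all 3 at 40 μg. It read 5.90, 5.81 and 6.21, then 5.57, 6.15 and 5.99, then 7.70, 7.63 and 8.01, and was at least 3.35-fold higher at 40 than at 2.5 μg (limma adjusted p = 5e-09), the bound being set by the dimmest signal well above background on each array.

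**Figure D3:**
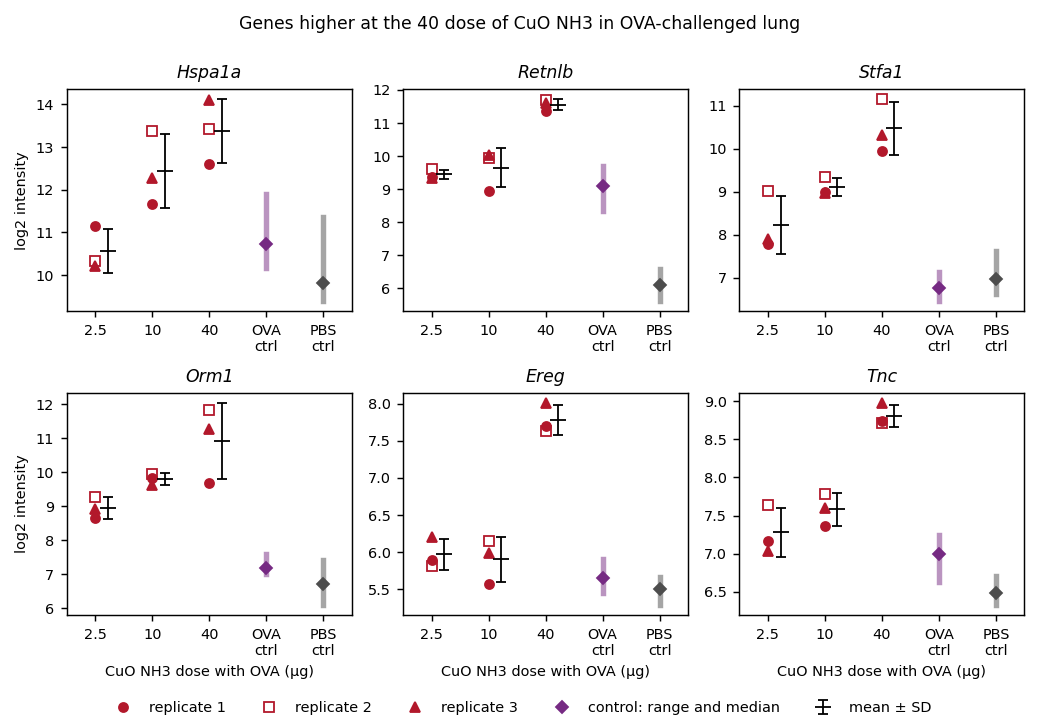
Level of 6 genes (log2 intensity, vertical axes) against CuO NH3 dose in OVA-challenged lung, with 1 symbol per replicate, the mean ± SD of 3 samples, and the range and median of the OVA and PBS control samples as bars with diamonds. Retnlb, Ereg and Tnc rise between 10 and 40 μg, whereas the Hspa1a and Orm1 samples at 10 μg overlap those at 40 μg.

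In the stress and growth lists most members were not called. Over all genes, 1.31% were called higher and 1.87% lower. Of 26 targets of the oxidant sensor Nrf2, 3 rose and Gclc, an enzyme of glutathione synthesis, fell (-0.62). Hmox1, which degrades haem, rose by 1.13 ± 0.37 (limma adjusted p = 0.037), but 7 of 17 alternative settings ended that call, while the reductase Akr1b8 rose by 0.79 ± 0.15 (limma adjusted p = 8.7e-05). Of 30 mitotic genes, Plk1 (0.71), Tpx2 (0.61) and Kif20a (0.61) rose, each just past the fold threshold and lost in 4, 6 and 7 of 17 settings, and the list median was 0.39. Of 15 p53 targets, Phlda3 rose (0.78 ± 0.10, limma adjusted p = 1.3e-07). Of 12 genes of the interleukin 6 family, Il11 rose (0.67 ± 0.19, limma adjusted p = 0.017), a call lost in 5 of 17 settings. None of 16 nuclear factor kappa B targets and cytokines, 16 genes of the unfolded protein response or 18 of cholesterol synthesis was called.

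In the lists of club, ciliated, alveolar, endothelial, and fibroblast and smooth muscle cells, no call was larger than 0.90 in size on the log2 scale. Goblet cell genes, with larger falls, are described above, and mesothelial and squamous epithelium genes below. Over all genes, 1.87% were called lower and 1.31% higher. Among 8 club cell markers, Cbr2, a carbonyl reductase, fell by 0.90, and among 10 ciliated cell markers, Dnah5 and Tppp3 fell by 0.66 and 0.65. Of 10 alveolar type 2 cell markers, the surfactant protein gene Sftpa1 fell by 0.72, Etv5 by 0.70 and Slc34a2 by 0.63, but the Slc34a2 call was lost in 9 of 17 alternative settings. Alveolar type 1 (8 measured), endothelial (12), heart muscle (8) and adipocyte (6) markers gave no call, and of 8 fibroblast and smooth muscle markers Des, the muscle filament desmin, rose by 0.82. Of 6 genes of red blood cells, 3 fell, Hbb-bt by 1.47, Alas2 by 1.18 and Hba-a1 by 0.96, a call lost in 6 of 17 settings. Their summed level ran from 17.23 to 18.15 at 2.5 μg and from 16.64 to 17.11 at 40 μg (log2), and their part in the other results was not tested.

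**Figure D4:**
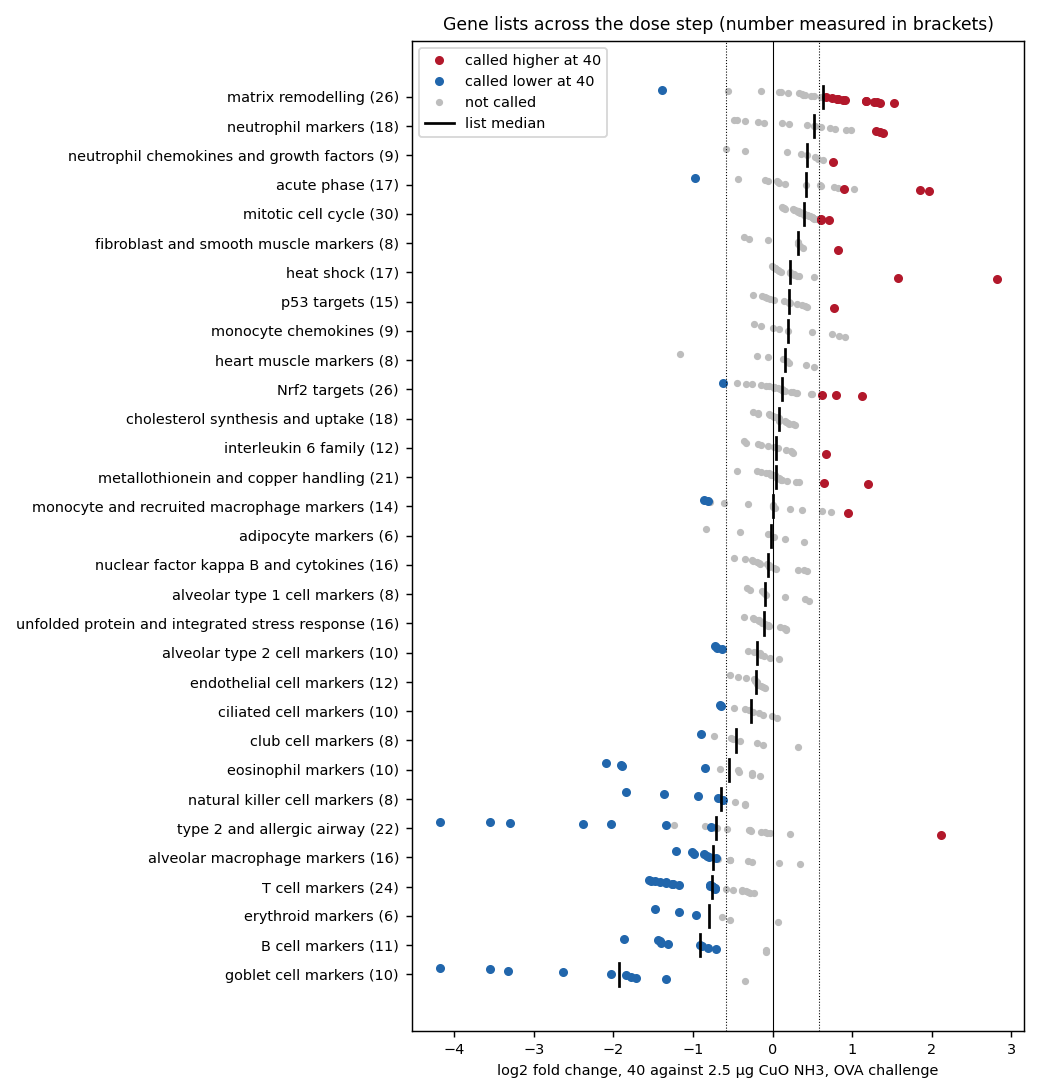
Log2 fold change from 2.5 to 40 μg CuO NH3 with OVA (horizontal axis) of every measured member of the 31 gene lists (rows), ordered by list median. Red points were called higher and blue points lower, dotted lines mark 0.58 in both directions, and the 4 lists at the bottom, of goblet, B, red blood and T cells, hold blue points with no red ones.

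The step from 2.5 to 10 μg was small. Only 10 genes were called (0.0436%), 4 higher (0.0175%) and 6 lower (0.0262%), and 1832 genes had an unadjusted p under 0.05. None of the 10 was on a gene list. One of them was Nccrp1 (-0.92 ± 0.15, limma adjusted p = 0.0015), named after its value was seen. Without replicate 2 at 2.5 μg there were 94 calls, without replicate 1 there were 63 and without replicate 3 there were 2. Leaving out replicate 1 or 3 at 10 μg gave 17 and 18, of which 12 and 11 were higher. The step from 10 to 40 μg gave 405 calls (1.77%), 161 higher (0.703%) and 244 lower (1.06%), or 161 in all without replicate 3 at 40 μg. It called 14 of the 24 T cell, 7 of the 11 B cell and 6 of the 10 goblet cell markers lower, 3 of the 30 mitotic genes higher, and 9 of the 26 matrix genes higher and 2 lower. For Muc5ac the first step was -1.19 (not called) and the second -2.36 (called), for Cd3d -0.40 and -1.01, and for Tnc 0.30 and 1.23. Both steps use the samples at 10 μg.

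Whether OVA changed the response to dose was asked by setting the step with OVA against that in PBS-challenged mice given the same doses of CuO NH3. The steps differed in 670 genes (2.92%), 286 with a higher (1.25%) and 384 with a lower value (1.68%) with OVA. In 510 of the 670 the step with OVA was nearer 0, and 422 were called in the PBS step against 126 in the OVA step. The number fell to 344 without replicate 2 at 2.5 μg with OVA, 414 without replicate 2 at 2.5 μg with PBS and 426 without replicate 1 at 40 μg with OVA. The PBS step by itself gave 1686 calls (7.36%), 904 higher (3.95%) and 782 lower (3.41%). Of the 728 genes called with OVA, 667 had the same sign with PBS and 382 were called there in the same direction. The share of all genes with the same sign in both steps is not given here. Called in opposite directions were 3 genes, Il33, Fxyd4 and Vnn1.

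Mitotic genes differed most often among the lists of 10 or more. With PBS, 29 of the 30 mitotic genes rose from 2.5 to 40 μg, with a median of 1.39, and in 25 of 30 the step was lower with OVA. Plk1, a mitotic kinase, read 9.05 to 9.50 at 2.5 μg and 10.82 to 11.17 at 40 μg with PBS, against 10.29 to 10.53 and 10.82 to 11.51 with OVA. The samples at 40 μg overlapped between challenges and those at 2.5 μg did not. Without replicate 2 at 2.5 μg with OVA, the number was 13. Arg1, an arginine-degrading enzyme of alternatively activated macrophages, had the largest difference, -3.52 ± 0.71 (limma adjusted p = 0.0024). With PBS it read 7.17, 7.72 and 8.39 at 2.5 μg and 11.39, 11.47 and 11.64 at 40 μg, whereas with OVA it read 13.00, 14.19 and 13.51 and then 13.28, 14.11 and 13.95. Of the 14 monocyte and recruited macrophage markers, 7 had a lower step with OVA, among them Spp1 (-1.94) and Trem2 (-1.47).

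In the goblet cell list, 4 of 10 genes had a lower step with OVA, while 3 of 10 also fell with PBS. Clca1 had the largest change of the list with PBS, -3.19. It read 6.07, 9.70 and 10.40 at 2.5 μg and 5.10, 5.69 and 5.82 at 40 μg with PBS. Muc5ac read 6.62 to 7.86 at 2.5 μg and 6.32 to 6.55 at 40 μg with PBS, a change of -0.78 that was not called, and its steps differed by -2.77 ± 0.67 (limma adjusted p = 0.011). Without replicate 2 at 2.5 μg with OVA, or with each array as a term, the difference for Muc5ac was not called. Fcgbp (-2.87 ± 0.56, limma adjusted p = 0.0017) and Chil4 (-2.75 ± 0.51, limma adjusted p = 0.0011) followed the same pattern, and Fxyd4, a subunit of ion pumps, differed by -2.92 ± 0.53 (limma adjusted p = 0.00083), rising by 1.67 with PBS. Retnlb rose under both challenges, by 4.41 with PBS and 2.11 with OVA, a difference of -2.30 ± 0.56 (limma adjusted p = 0.011), and read 11.03 to 11.19 at 40 μg with PBS. In the other direction, 4 of 8 club cell markers had a higher step with OVA. Scgb3a2, a secretoglobin of club cells, read 15.91 to 16.30 at 2.5 μg and 12.41 to 13.09 at 40 μg with PBS, against 14.07 to 14.39 and 13.11 to 13.93 with OVA (difference 2.56 ± 0.57, limma adjusted p = 0.0064). Of 17 heat shock genes, 5 had a higher step with OVA, the cochaperone Dnajb1 by 1.37. None of those 5 was called with OVA (Dnajb1 0.11), and 5 heat shock genes fell with PBS. Hspa1a and Hspa1b, which rose with OVA, were not among the 5 with a higher step. With PBS, Hspa1a read 12.28, 12.51 and 12.87 at 2.5 μg and 12.89, 13.70 and 13.73 at 40 μg. The heart muscle list had a median difference of 1.21 with no call, and a median of -1.17 in the PBS step. The part of heart tissue in these samples was not tested. For T cells, where 11 of 24 markers fell with PBS, the steps differed in 1 marker, Lck (-0.73).

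**Figure D5:**
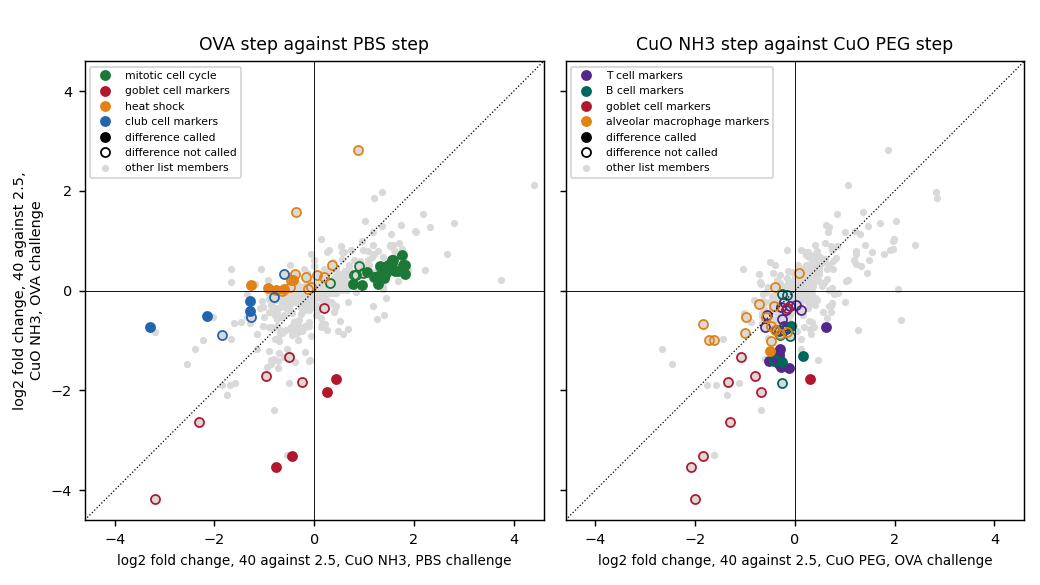
Log2 fold change from 2.5 to 40 μg CuO NH3 with OVA (vertical axis) against the step with PBS (left) and the CuO PEG step with OVA (right), for the members of the 31 lists. Filled coloured points are genes whose steps differed by the test, open ones were not called, and the dotted line marks equal steps. The filled mitotic genes lie to the right of that line in the left panel, and the 10 filled T cell markers lie below it in the right panel.

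The last comparison set 1 pair of surface coatings, methylaminated and PEGylated, side by side on a CuO core at the same doses with OVA. Doses were equal in mass of whole material, so the amount of copper given differed between the coatings. The paper also gives different particle sizes and copper dissolution rates for these materials. CuO PEG was supplied as a suspension and CuO NH3 as a powder. No sample of CuO PEG at 40 μg with OVA lay on slide 6. The part of these in the differences was not tested. Their steps differed in 393 genes (1.72%), 138 with a higher (0.602%) and 255 with a lower value (1.11%) for CuO NH3. In 302 of the 393 the CuO PEG step was nearer 0, and 206 were called in the CuO NH3 step against 43 in the CuO PEG step. The CuO PEG step gave 330 calls (1.44%), 211 higher (0.921%) and 119 lower (0.519%), and 101 of the 728 genes of CuO NH3 were called there in the same direction. With each array as a term, 1 gene differed. Leaving out 1 sample gave 159 (without replicate 1 of CuO PEG at 40 μg) to 712 (without its replicate 2), with 232 without its replicate 3 and 229 without replicate 3 of CuO NH3 at 40 μg.

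Of 24 T cell markers, 10 had a lower step for CuO NH3 and 0 a higher one, and 0 differed with each array as a term. Icos read 8.50, 8.94 and 8.97 at 2.5 μg of CuO PEG and 8.62, 8.66 and 8.78 at 40 μg, and its steps differed by -1.44 ± 0.29 (limma adjusted p = 0.0034). Cd3d differed by -0.89 and Cd6 by -1.25. Of 11 B cell markers, 3 differed. Cd83 read 10.94, 10.97 and 11.20 at 2.5 μg and 10.79, 10.92 and 11.08 at 40 μg of CuO PEG, with a difference of -2.03 ± 0.28 (limma adjusted p = 2.8e-05). Il33 was 0.30 with CuO PEG, not called, and differed by -1.07 ± 0.28 (limma adjusted p = 0.021).

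Among macrophage genes, Gpnmb, a glycoprotein of phagocytes, read 8.79 to 9.41 at 2.5 μg and 10.60 to 11.50 at 40 μg of CuO PEG, while CuO NH3 gave 10.84 to 10.97 and 10.34 to 11.48 (difference -2.03 ± 0.47, limma adjusted p = 0.01). The 40 μg samples overlapped, and those at 2.5 μg did not. Ms4a7, a membrane protein of macrophages, differed by -2.06 ± 0.43 (limma adjusted p = 0.0044). Cxcl5, an epithelial neutrophil chemokine, rose by 2.13 with CuO PEG and was at -0.59 with CuO NH3 (difference -2.71 ± 0.74, limma adjusted p = 0.031), a call that 8 of 22 settings ended. Slc26a4, the anion exchanger pendrin of allergic airway epithelium, fell by 1.77 with CuO NH3 and was at 0.31 with CuO PEG (difference -2.08 ± 0.54, limma adjusted p = 0.021), a call that 7 of 22 settings ended.

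Goblet cell genes fell with both coatings, 9 of 10 with CuO NH3 and 3 of 10 with CuO PEG. The list medians were -1.94 and -1.20. For Muc5ac, CuO PEG read 10.16, 10.93 and 11.18 at 2.5 μg and 8.20, 8.49 and 9.34 at 40 μg (-2.08 ± 0.49, called), and the difference of -1.46 between coatings had a 95% interval from -2.80 to -0.12 and was not called. For Fcgbp the interval was -2.59 to -0.36 and for Chil4 -2.71 to -0.67. Of the 10 goblet cell genes, Slc26a4 alone differed. No mitotic gene differed between the coatings. Hspa1a rose by 1.87 with CuO PEG, and the difference of 0.94 had an interval from -0.42 to 2.30. The stefins, Orm1 and Mt2 rose with both coatings, and none of these differences was called, for Stfa1 with an interval from -1.16 to 1.01.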

How the data were processed

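RNA from mouse lung tissue was hybridised to 2-colour Agilent arrays, with a different sample in each channel. The authors deposited scanner files from Agilent Feature Extraction 12.0.2.2 that hold spot intensity per channel, and a table of their normalized log2 intensity. Here each channel was treated as a sample: the median foreground intensity, without background subtraction, was log2 transformed and quantile normalized over 89 samples. Control and outlier spots were left out, probes were averaged, and genes were named through RefSeq transcript accessions, so that 56605 probes gave 22911 genes and 23611 probes had no gene. limma 3.58.1 (R 4.3.3) fitted 26 groups with dye, slide and array position as terms, and contrasts were adjusted by the Benjamini-Hochberg method. Differences between steps were contrasts of contrasts. The fit was tested on simulated data.

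Alternatives were normexp background correction (offset 50), loess within arrays, the deposited values, a filter on dim probes, the brightest probe per gene, other terms for array and dye, fewer samples, and each replicate left out in turn. The 12 largest rises and 12 largest falls without overlap, up to 4 members of each of 31 lists, the 5 largest differences per comparison of steps and the genes the study names are described. The members and lists were chosen with earlier results of these data known. Groups come from the labels. The number of arrays limits the precision. Some items are not reported here.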

Additional observations from a re-analysis of the deposited data

Results flagged for a closer look

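Dose steps that differed between challenges or coatings are listed first. The step of CuO NH3 with OVA differed from that with PBS in 670 genes, with the largest differences (log2, OVA minus PBS) in Arg1 (-3.52), Fxyd4 (-2.92), Fcgbp (-2.87), Muc5ac (-2.77) and Chil4 (-2.75). The step with OVA differed between CuO NH3 and CuO PEG in 393 genes, with the largest differences (CuO NH3 minus CuO PEG) in Cxcl5 (-2.71), Slc26a4 (-2.08), Ms4a7 (-2.06), Cd83 (-2.03) and Gpnmb (-2.03).

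Among 96 sets of control samples checked, a single sample stood far from the others in 2, where chance alone gives about 1 in 20. Dmbt1 was highest in replicate 4 of the 7 PBS controls, at 7.25 with the next at 6.19 (log2 intensity). Muc5b was lowest in replicate 6 of the 7 PBS controls, at 9.52 with the next at 10.22.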

How the results depend on the processing

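The settings were run for 152 results of genes chosen by the naming rule or named by the study. None of these that was called changed sign under the 16, 17 or 22 settings run for it. Other genes and step differences named in the text were not covered. With dye and each array as terms, the calls were 160 for 40 against 2.5 μg (728 as reported), 0 for 10 against 2.5 μg (10), 4 for 40 against 10 μg (405), 148 for the step with OVA minus that with PBS (670) and 1 for CuO NH3 minus CuO PEG (393). Calls for 10 against 2.5 μg were 0 with the 9 samples alone, 3 with the dim filter, 1 with loess, 1 with normexp and 3 with the slides of CuO NH3 and CuO PEG alone, and more of its calls were higher than lower with the dim filter, the brightest probe, or without replicate 1 or 3 at 10 μg. OVA minus PBS had 376 higher and 372 lower without replicate 3 at 40 μg with OVA. CuO NH3 minus CuO PEG gave 224 with dye alone and 257 with loess.

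Leaving out 1 replicate gave 566 to 868 calls for 40 against 2.5 μg, 2 to 94 for 10 against 2.5 μg, 161 to 475 for 40 against 10 μg, 344 to 871 for OVA minus PBS and 159 to 712 for CuO NH3 minus CuO PEG. The lowest and highest values came without replicate 3 at 40 μg and replicate 2 at 2.5 μg for 40 against 2.5 μg, and without replicate 2 and replicate 1 at 2.5 μg with OVA for OVA minus PBS. The cause was not tested.

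In the CuO NH3 groups with OVA, replicate numbers follow the slides. Deviations of same-numbered samples at 2.5 and 40 μg correlated at 0.133, 0.093 and 0.108, so the numbers were not taken as pairs. With the replicate block and dye, the calls were 804, 13, 429, 783 and 363 in the order above, each within 1.5 times of the value reported. The deposited values gave 728, 10, 405, 670 and 393, the same as reported, also for higher and lower calls. They are thus no separate check, although they are counted among the alternative settings.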

Other observations

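Further gene groups moved in the step from 2.5 to 40 μg with OVA. They were assembled after the values were seen, so they are descriptions with no support of their own. Of 11 genes of antigen presentation by MHC class II, 10 fell, with a median log2 fold change of -1.22, among them H2-Aa by 1.44, the class II regulator Ciita by 1.34 and the invariant chain Cd74 by 1.22. H2-Eb2, at -0.56, did not pass the fold threshold. Of these 11 genes, 6 fell with PBS and 0 with CuO PEG. Of 7 lectins of the CD209 family, which are close copies, 6 fell, Cd209e by 1.77, and Cd209c was at 0.00. Of 9 plasma cell genes, 6 fell, with the immunoglobulin joining chain Jchain at -1.86 and Mzb1 at -1.62. Of 12 mast cell genes, the proteases Mcpt1 (-2.04), Cma1 (-1.44), Mcpt4 (-1.38) and Cpa3 (-1.06) fell.

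Some members of other groups were higher at 40 μg. The epidermal growth factor receptor ligands Areg and Ereg were called of 7, and Areg read 7.14, 7.08 and 6.62 at 2.5 μg against 8.37, 8.05 and 8.72 at 40 μg (log2 intensity). Of 7 mesothelial genes, 4 rose, led by Msln, the surface protein mesothelin, which read 11.83, 11.34 and 11.63 against 13.17, 13.01 and 13.33. With CuO PEG, 0 mesothelial genes were called, and the Msln step differed between coatings by 1.49 (limma adjusted p = 0.0042). Of 29 genes of squamous epithelium, 6 rose, among them Sprr1a (1.46) and Krt14 (1.11), and 2 fell, Sprr2a2 by 0.86 and Sprr2b by 0.85. Both kininogen genes rose, Kng1 by 1.71, and Kng2 was at least 2.12-fold higher.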
